A study of Mus musculus with 6 samples.

Results

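A set of 8 genes that equip astrocytes for moving water, clearing potassium and coupling to their neighbours were followed across 2 sorted cell fractions of the neonatal mouse cerebellum. They are the water channel gene Aqp4, the potassium channel genes Kcnj10 and Kcnj16, the connexin genes Gja1, Gjb2 and Gjb6, and the genes Dag1 and Dtna of the complex that anchors channels at the membrane. The members were chosen by gene name, as the probes that are not controls and carry one of these names in the scanner files. This gave 8 of the 22374 genes on the array whose names are known to RefSeq, with 10 probes in all. Aqp4 and Dtna have 2 probes each and the other 6 genes have 1.

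The A+/G+ fraction consists of cells selected magnetically with an antibody to ACSA-2, an epitope of the sodium pump subunit Atp1b2, and the A-/G+ fraction of cells selected for the glutamate transporter GLAST (Slc1a3) after cells with ACSA-2, L1CAM, CD45, PSA-NCAM or Ter119 had been removed. All samples came from untreated wild-type CD1 mice of postnatal days 1 to 3 according to the labels, whereas the methods give an earlier age and a C57BL/6 background. Cerebella of either sex were pooled, each sample held 50000 cells, and each fraction had 3 samples that the labels call biological replicates, with 1 array per sample. A fraction enriched for a surface marker is not one cell type, and in such bulk samples fewer cells of a type and less RNA per cell cannot be told apart. Values are quantile normalized log2 signals of 1-color Agilent arrays. Slide 1 carried the A+/G+ samples and slide 2 the A-/G+ samples, and effects of slide and fraction cannot be told apart.

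Astrocytes take up the potassium that active neurons release and pass it on through a network of cells joined by gap junctions, while water follows through aquaporin channels at the endfeet on blood vessels. Kir4.1, the product of Kcnj10, forms channels alone or together with Kir5.1, the product of Kcnj16. Gap junctions between astrocytes are built mainly from Cx43 (Gja1) and Cx30 (Gjb6), with Cx26 (Gjb2) as a further connexin. Dystroglycan (Dag1) and α-dystrobrevin (Dtna) belong to the dystrophin complex, which holds Aqp4 and Kir4.1 at the endfeet. Several of these genes are also known from other cells: Gjb2 and Gjb6 from fibroblasts of the leptomeninges, Gja1 and Aqp4 from ependymal cells, and Kcnj10 and Kcnj16 from the oligodendrocyte lineage.

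The probe sequences show what was measured for the potassium channel and connexin genes, including the 3 genes that passed the test. The first 30 of the 60 bases of each probe are printed, 5′ to 3′ as in the scanner files. No run of 20 bases of any member probe occurred in a probe with another gene name.
Kcnj10: gaaacagaagaatctagggatgatttctct
Kcnj16: ttataacatgctttgacacgcctgatggct
Gja1: ctacacattaactcagaacttgtattctga
Gjb2: caagttgaaccattaccactatgccttatg
Gjb6: ttcattggacaatatacattgccgattgct

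On the mm9 annotation of the array, the probe of Kcnj10 lies on the plus strand at chr1:174304062-174304121, that of Kcnj16 on the plus strand at chr11:110889223-110889282 and that of Gja1 on the plus strand at chr10:56109814-56109873. The probes of Gjb2 and Gjb6 lie on the minus strand of chromosome 14, at chr14:57717629-57717688 and chr14:57742226-57742285, with 24597 bases between their starts. Gjb2 and Gjb6 are neighbouring protein-coding genes in RefSeq (GRCm38.p6), with Gja3 on the other side of Gjb2. The probe of Dag1 lies on the minus strand at chr9:108108491-108108550. Exon and UTR positions of the probes were not analysed here.

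Of the 8 genes, the mean was higher in A+/G+ for 7 and higher in A-/G+ for 1, Dtna. Kcnj10, Kcnj16 and Gja1 passed the test (limma, Benjamini-Hochberg adjusted p of at most 0.05 over all 55681 probes), and all 3 were higher in A+/G+. Over the brightest probes of the 22374 genes, 12.9% passed in either direction, 7.88% as higher in A+/G+ and 5.01% as lower. Kcnj16 and Gja1 also had medians at least 4-fold apart, the size limit of the methods, which 2.77% of all genes met as higher in A+/G+. The median difference of the 8 genes (A+/G+ minus A-/G+) was 2.07 on the log2 scale, compared with -0.04 over all probes. The former is over the brightest probe of each gene and the latter over all 55681 probes, dim ones included. The members were chosen with earlier results of these data known, so these comparisons describe them and test nothing. The 2 fractions did not overlap for 7 of the 8 genes, and with 42.8% of all genes not overlapping such separation was common on these arrays. An exact permutation test of 3 arrays against 3 cannot give a p below 0.1 (two-sided), and that was its value for each of these 7 genes.

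**Figure D1:**
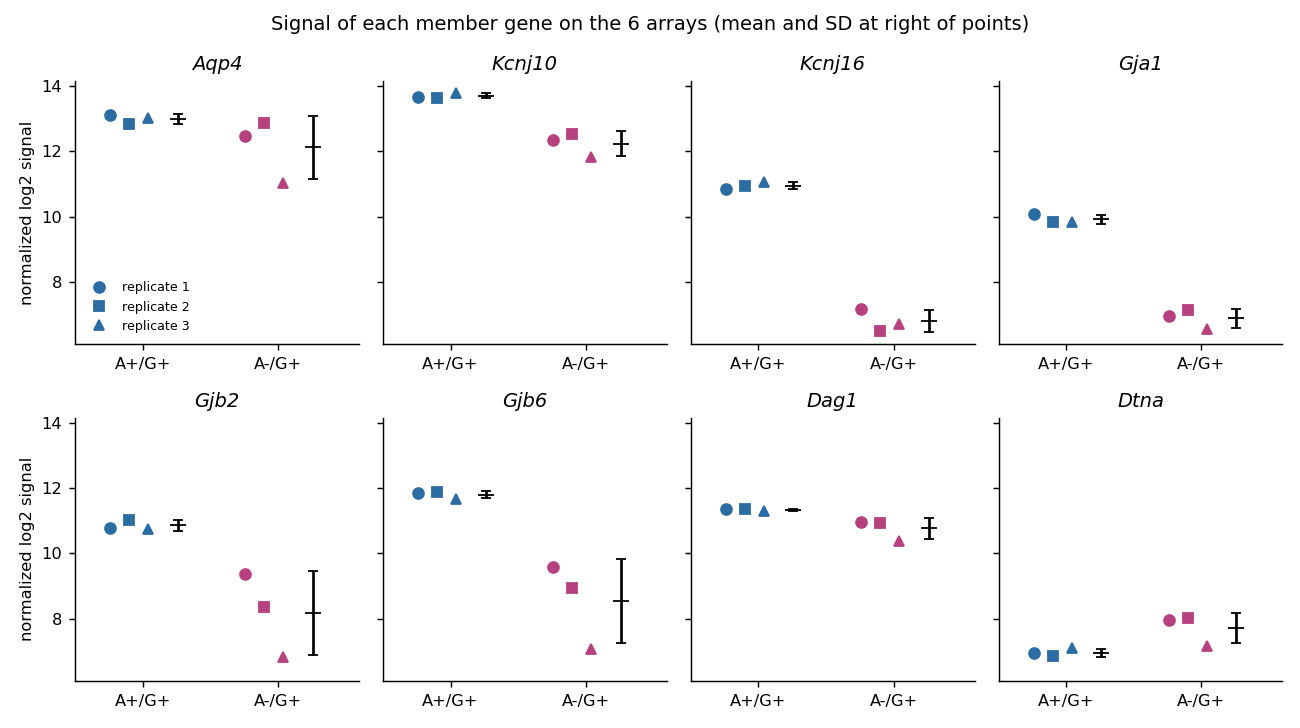
Normalized log2 signal (y axis) of the brightest probe of each of the 8 genes on the 3 A+/G+ and the 3 A-/G+ arrays, with symbols for the replicate number and the mean and SD in black. The A+/G+ arrays lie close together for every gene, and A-/G+ replicate 3 is the lowest A-/G+ array for 7 of the 8 genes.

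The arrays of A-/G+ were dimmer and less alike than those of A+/G+. The 75th percentile of the intensity was 332 to 334 in A+/G+ and 56.6 to 251 in A-/G+, where replicate 1 was dimmest. Between 26493 and 26676 probes per array were well above background in the former and between 18361 and 24745 in the latter. The brightest probe of every member, which gives the value of the gene unless stated otherwise, was well above background on each of the 6 arrays. After normalization A-/G+ replicate 3 was the lowest A-/G+ array for 7 of the 8 genes, the exception being Kcnj16. Without that array 7 of the 8 genes passed the test, all but Aqp4, and 21.6% of all genes then passed. The sort markers followed the labels in the case of Atp1b2, whose log2 signal was 12.82 ± 0.14 and 10.66 ± 0.31 (A+/G+ and A-/G+, mean ± SD), while Slc1a3 was bright in both fractions with 13.39 ± 0.19 and 14.59 ± 0.51. The mean of Slc1a3 was higher in A-/G+ but did not pass (difference -1.19, 95% interval -1.94 to -0.45, adjusted p = 0.0733, limma).

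Among the potassium channels, Kcnj16 had the largest difference of the 8 genes. Its log2 signal in replicates 1, 2 and 3, the order used throughout, was 10.83, 10.94 and 11.05 in A+/G+ and 7.18, 6.51 and 6.70 in A-/G+. The gap between the fractions was far wider than the spread within either of them. The means of 10.94 ± 0.11 and 6.80 ± 0.34 (SD, n = 3) differed by 4.14 (SE 0.19, 95% interval 3.65 to 4.64, adjusted p = 0.00308, limma). The ratio of the medians was 18.9-fold, and with normexp background correction it was 11.7-fold with a difference of 3.47, below that interval. Whichever array was left out, the difference stayed past the limit and was at most 4.33.

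Kcnj10, which encodes the main potassium channel of astrocytes, was bright in both fractions. Its log2 signal was 13.67, 13.64 and 13.78 in A+/G+ and 12.33, 12.54 and 11.81 in A-/G+. Every A+/G+ array was thus above every A-/G+ array. The means of 13.70 ± 0.08 and 12.23 ± 0.38 differed by 1.47 (SE 0.20, 95% interval 0.95 to 2.00, adjusted p = 0.0204, limma). The ratio of the medians was 2.52-fold, less than the limit of 4-fold. The call was lost without any one of 4 arrays: without A+/G+ replicate 1, 2 or 3 the adjusted p was 0.0804, 0.087 or 0.0923, and without A-/G+ replicate 1 it was 0.0514. The difference itself remained between 1.26 and 1.63.

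The differences of the partner genes were then set against each other. The log2 ratio of the Kcnj16 to the Kcnj10 probe was lower by 2.67 in A-/G+ than in A+/G+. This was the largest such contrast among 5 pairs of members that were compared. The ratio did not overlap between the fractions, but the exact permutation p of 0.1 (two-sided, 0.167 adjusted over the 5 pairs) is the lowest value this design can reach.

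The markers of the oligodendrocyte lineage were also higher in A+/G+. Of the 8 markers of oligodendrocyte precursors, 3 passed as higher (Olig1, Olig2 and Pdgfra), 1 passed as lower (Mbp) and 4 did not pass, with a mean log2 signal of 9.89 to 10.14 on the A+/G+ arrays and 8.09 to 9.21 on the A-/G+ arrays. Of the markers of general astroglia, 4 of 10 passed as higher (Gfap, S100b, Aldoc and Atp1b2), 1 as lower (Aldh1l1) and 5 did not pass, with a mean log2 signal of 12.69 to 12.86 and 11.86 to 12.52. Of these, Atp1b2 carries the epitope by which the fractions were sorted, so its direction was set by the design. Slc1a3, the other sort marker, is among the 5 that did not pass. On every array all 10 astroglial markers and 6 of the 8 precursor markers were well above background. The part of these cells in the differences of Kcnj10 and Kcnj16 was not tested.

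**Figure D2:**
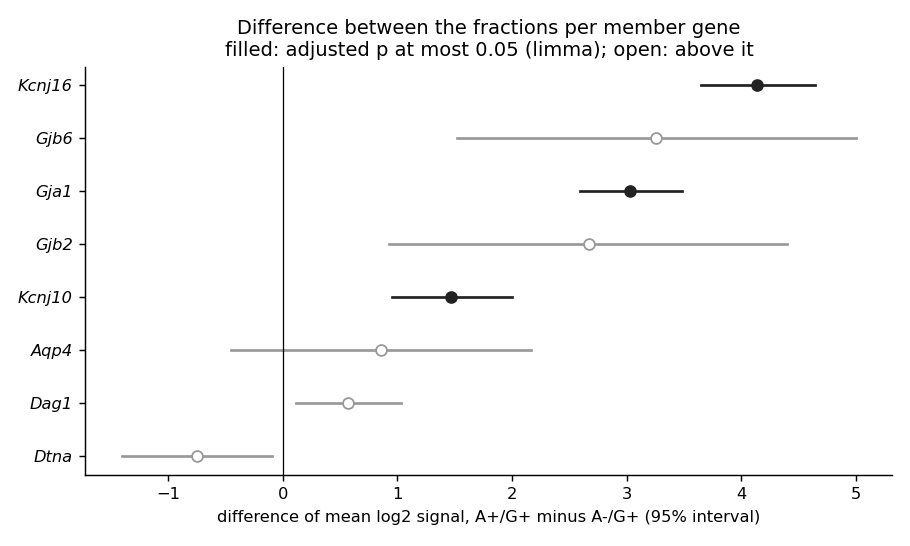
Difference of the mean log2 signal between the fractions (x axis, A+/G+ minus A-/G+) with its 95% interval from limma for each of the 8 genes, filled where the adjusted p was at most 0.05. Kcnj16, Gja1 and Kcnj10 are filled, and the intervals of Gjb2, Gjb6 and Aqp4 are the widest.

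Among the connexins, Gja1 was higher in A+/G+ by a margin that no single array decided. Its single probe is spotted 10 times on each array. The log2 signal was 10.09, 9.84 and 9.83 in A+/G+ and 6.96, 7.13 and 6.57 in A-/G+. The lowest A+/G+ array was well above the highest A-/G+ array. The means of 9.92 ± 0.14 and 6.89 ± 0.29 differed by 3.03 (SE 0.17, 95% interval 2.59 to 3.48, adjusted p = 0.0038, limma). The ratio of the medians was 7.36-fold, and with normexp background correction it was 4.73-fold with a difference of 2.43. The difference was 2.87 to 3.15 and past the limit whichever array was left out.

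Gjb6 had a difference of similar size that narrowly missed the limit. Its log2 signal was 11.83, 11.87 and 11.67 in A+/G+ and 9.57, 8.93 and 7.08 in A-/G+. The fractions did not overlap, and the A-/G+ arrays were spread over a far wider range than the A+/G+ arrays. The means of 11.79 ± 0.11 and 8.53 ± 1.29 differed by 3.26 (SE 0.67, 95% interval 1.52 to 5.0, adjusted p = 0.0513, limma), with a 7.48-fold ratio of medians. Without A-/G+ replicate 3 the difference was 2.54 with an adjusted p of 0.0109, whereas with any other array left out the adjusted p was 0.051 to 0.172. The ratio of medians was 14.2-fold without A-/G+ replicate 1 and 11.4-fold without A-/G+ replicate 2.

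Gjb2 showed the same order of arrays. Its log2 signal was 10.77, 11.03 and 10.74 in A+/G+ and 9.36, 8.37 and 6.82 in A-/G+. Here again the fractions did not overlap and A-/G+ replicate 3 was the lowest. The means of 10.85 ± 0.16 and 8.18 ± 1.28 differed by 2.67 (SE 0.67, 95% interval 0.93 to 4.4, adjusted p = 0.0815, limma), with a 5.3-fold ratio of medians. Without A-/G+ replicate 3 the difference was 1.98 with an adjusted p of 0.0365, and with any other array left out the adjusted p was 0.0501 to 0.24. The ratio of medians was 9.05-fold without A-/G+ replicate 1. The neighbouring genes were also compared within each array. The log2 ratio of the Gjb6 to the Gjb2 probe was 0.94 ± 0.11 in A+/G+ and 0.35 ± 0.19 in A-/G+. These ratios differed by 0.60 without overlap (exact permutation p = 0.1, two-sided). The differences of Gja1 and Gjb6 were not separated, with a contrast of -0.23 (exact permutation p = 0.8, two-sided).

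Markers of the leptomeninges were also higher in A+/G+, and over the A-/G+ arrays their mean had the order seen for Gjb2 and Gjb6. Of 8 markers of meningeal fibroblasts, 4 passed as higher in A+/G+ (Slc6a13, Foxc1, Lum and Islr) and 4 did not pass, and each array showed all 8 well above background. Their mean log2 signal was 12.49 to 12.74 in A+/G+ and 11.14, 10.65 and 9.94 in A-/G+. Not every marker had this order: Foxc1 was 7.14, 6.72 and 6.81 and Islr 10.03, 9.88 and 10.26 in A-/G+, and the order itself was not tested. Nor was the order particular to this list: the mean of the Purkinje cell markers was 5.88, 5.46 and 5.28 in A-/G+. Replicate 3 was also the lowest A-/G+ array for the means of the general astroglia and Bergmann glia markers. Endothelial markers, of which 1 of 8 passed as higher (Cdh5), ran the other way among the A-/G+ arrays, with 6.19, 6.75 and 8.51 against 8.73 to 9.19 in A+/G+. Of 7 ependymal markers on the array 5 passed as higher, with a mean of 7.68 to 8.43 in A+/G+ and 3.86 to 4.93 in A-/G+, and Dnah5 and Spag17 were well above background on none of the A-/G+ arrays. The part of these cells in the differences of the connexins was not tested.

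**Figure D3:**
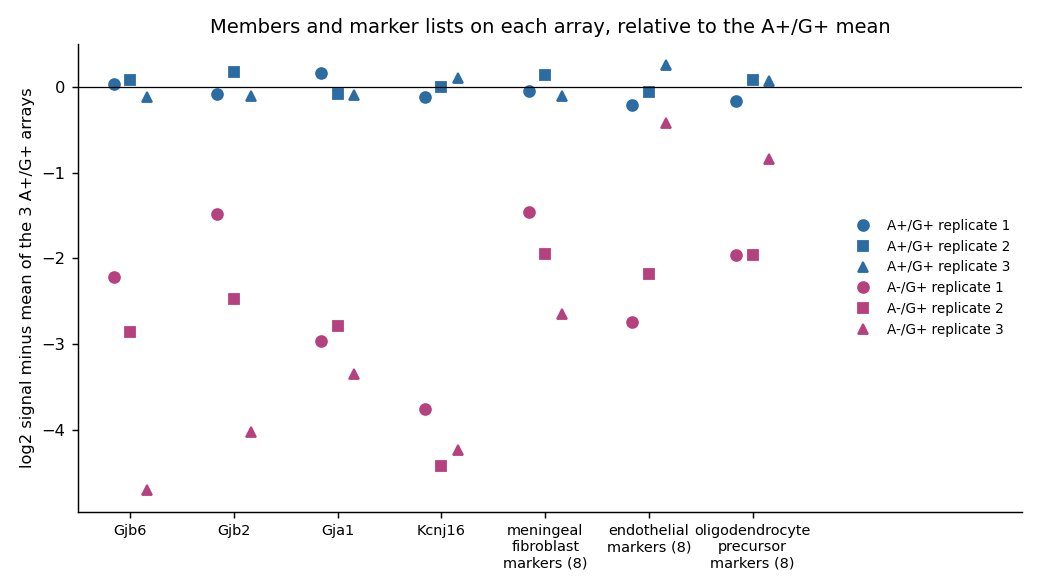
Log2 signal of 4 member genes and mean log2 signal of 3 marker lists of 8 genes on each array, relative to the mean of the 3 A+/G+ arrays (y axis). On the A-/G+ arrays Gjb6, Gjb2 and the mean of the meningeal fibroblast markers have an order with replicate 1 highest and replicate 3 lowest, while for the endothelial markers replicate 3 is the highest.

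The promoters of the neighbouring connexin genes, whose signals shared an order over the A-/G+ arrays, are shown as the 250 bases before the start site in RefSeq (GRCm38.p6), both on the minus strand. Capitals mark matches on either strand to the GC box GGGCGG.
Gjb2 chr14:57104703-57104952: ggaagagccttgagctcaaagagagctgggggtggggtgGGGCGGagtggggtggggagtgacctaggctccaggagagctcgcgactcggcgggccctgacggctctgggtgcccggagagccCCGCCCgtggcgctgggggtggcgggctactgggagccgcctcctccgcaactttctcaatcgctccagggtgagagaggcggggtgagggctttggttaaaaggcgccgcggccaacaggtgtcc
Gjb6 chr14:57133612-57133861: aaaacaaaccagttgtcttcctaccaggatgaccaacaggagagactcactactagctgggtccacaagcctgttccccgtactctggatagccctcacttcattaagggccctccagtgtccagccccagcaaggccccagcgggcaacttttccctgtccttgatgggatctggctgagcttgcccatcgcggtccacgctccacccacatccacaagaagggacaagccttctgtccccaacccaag

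The window of Gjb2 held 18 CG dinucleotides and 2 GC boxes, and that of Gjb6 held 5 CG dinucleotides and no GC box. A GC box occurred in 32.7% of the 32851 promoter windows of this length, and the median window held 6 CG dinucleotides. Neither window held the TATA box TATAAA, the AP-1 site TGANTCA or the NFI core TTGGCA on either strand, which occurred in 12.4%, 6.75% and 12.3% of all windows. The single window of Gja1 held 1 AP-1 site, that of Kcnj10 held 2 GC boxes, and Kcnj16 has 4 start sites with a window each. The table holds windows of 6 of the 8 members. These matches describe the letters of the windows and no binding was measured.

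Aqp4, the water channel gene of astrocyte endfeet, showed no difference larger than the spread of the arrays. The log2 signal of its brighter probe was 13.11, 12.82 and 13.00 in A+/G+ and 12.46, 12.86 and 11.03 in A-/G+. The fractions overlapped, and A-/G+ replicate 3 stood apart from the other A-/G+ arrays. The means of 12.98 ± 0.15 and 12.12 ± 0.96 differed by 0.86 (SE 0.51, 95% interval -0.45 to 2.17, adjusted p = 0.411, limma), and without that array by 0.32 (adjusted p = 0.32). The second probe gave 12.49, 12.17 and 12.40 in A+/G+ and 12.10, 12.27 and 11.21 in A-/G+, a difference of 0.49 (adjusted p = 0.447). The interval of the brighter probe still includes a difference as large as that of Kcnj10, and the contrast between these 2 genes was 0.61 with overlap (exact permutation p = 0.3, two-sided).

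The anchoring genes had small differences. Dag1, which encodes the link between the dystrophin complex and laminin or agrin outside the cell, had a log2 signal of 11.35, 11.34 and 11.30 in A+/G+ and 10.96, 10.94 and 10.38 in A-/G+. The fractions did not overlap, although the difference was small. The means of 11.33 ± 0.03 and 10.76 ± 0.33 differed by 0.57 (SE 0.18, 95% interval 0.12 to 1.03, adjusted p = 0.131, limma), with a 1.32-fold ratio of medians. Without A-/G+ replicate 3 the difference was 0.38 with an adjusted p of 0.0197.

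Dtna was the one member with a higher mean in A-/G+. Its brighter probe gave 6.94, 6.85 and 7.09 in A+/G+ and 7.95, 8.01 and 7.17 in A-/G+. The fractions did not overlap, with A-/G+ replicate 3 close to the A+/G+ arrays. The means of 6.96 ± 0.12 and 7.71 ± 0.47 differed by -0.75 (SE 0.25, 95% interval -1.40 to -0.09, adjusted p = 0.163, limma), and without A-/G+ replicate 3 by -1.02 (adjusted p = 0.0114). With a shift by the 75th percentile as the only normalization, the difference of Dtna was nearly the same at -0.76, while the median over all probes moved from -0.04 to -1.02. The same shift left the other 7 genes higher in A+/G+, with differences of 0.53 for Dag1 to 4.11 for Kcnj16. The second probe of Dtna gave 3.71, 3.62 and 3.87 in A+/G+ and 2.09, 4.28 and 3.68 in A-/G+, a difference of 0.38 (adjusted p = 0.71), and stood well above background on just 1 array, of A+/G+. The genes of the Bergmann glia list were mostly lower in A+/G+: 6 of 7 passed as lower (Mybpc1, Gria1, Npy, Gdf10, Hopx and Gria4). The remaining gene, Slc1a6, passed as higher, but it is known mainly from Purkinje cells and is a poor marker of Bergmann glia. The mean log2 signal of all 7, Slc1a6 included, was 8.56 to 8.87 in A+/G+ and 10.52 to 10.89 in A-/G+. Each of the 6 arrays showed all 7 well above background, and the part of Bergmann glia in the values of Dtna was not tested. The contrast between Dag1 and Dtna was 1.32 without overlap (exact permutation p = 0.1, two-sided).

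The genes nearest to each member were sought among 10978 genes well above background on all 6 arrays, by the root mean square distance of the log2 signals over the 6 arrays after the mean of each probe had been subtracted. The distance is not scaled to the size of a difference, so distances of different members are not comparable. The nearest genes are a description and were not tested. Nearest to Kcnj16 were the zinc transporter gene Slc39a12 (distance 0.21), Olig1, a transcription factor of the oligodendrocyte lineage (0.30), and the GABA transporter gene Slc6a11 (0.32). Nearest to Kcnj10 were the immediate early gene Junb (0.08), Maoa, which encodes a monoamine oxidase (0.08), and Aldoc, an aldolase of astrocytes (0.09). Nearest to Aqp4 were the immediate early gene Fos (0.13), Klf4 (0.23) and Btg2 (0.23).

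For Gja1 the nearest included the carboxypeptidase gene Cpe (0.16) and Pla2g3 (0.18). For Gjb2 they included Ranbp3l (0.13) and the retinaldehyde dehydrogenase gene Aldh1a1 (0.22). For Gjb6 the nearest were the Wnt ligand gene Wnt6 (0.18), the complement gene C4b (0.23) and Crabp2, which encodes a retinoic acid binding protein (0.26). Dag1 was nearest to Rbms3 (0.02), Dtx4 (0.05) and Surf4 (0.06), and Dtna to Nhlrc2, Nrcam and Id4 (0.08 each).

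Beyond the members, 64 related genes in 4 lists were examined, of which 4 passed as higher in A+/G+, 3 passed as lower and 57 did not pass. These 7 calls are read against the 12.9% of all genes that passed, and 19 of the 64 stayed at background on every array. Without A-/G+ replicate 3, 13 passed as higher and 4 as lower, whereas 1 passed as higher without A+/G+ replicate 1, 2 or 3 and 2 without A-/G+ replicate 2. As lower, 1 passed without A+/G+ replicate 1 or 2 or A-/G+ replicate 1, and 0 passed without A+/G+ replicate 3 (limma). The whole array moved likewise: 2589 probes passed as higher and 2583 as lower with all arrays, and 4437 and 4578 without A-/G+ replicate 3. Without A+/G+ replicate 1, 2 or 3 they were 1021 and 577, 816 and 435, or 846 and 404. Without A-/G+ replicate 1 or 2 they were 2016 and 1831, or 1772 and 1481.

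In the anchoring complex, 1 of 15 genes passed as higher, 1 as lower and 13 did not pass, with a median difference of 0.23. Lama2, which encodes a laminin chain that dystroglycan binds, was 11.80 ± 0.15 in A+/G+ and 10.02 ± 0.47 in A-/G+ (difference 1.78, adjusted p = 0.0225, limma). The sarcoglycan gene Sgcd was 4.51 ± 0.22 and 5.49 ± 0.06 (difference -0.98, adjusted p = 0.0182, limma). Its signal was dim, well above background on 3 A+/G+ arrays but on 2 A-/G+ arrays. Dmd, the dystrophin gene, had a higher mean in A-/G+ and did not pass (difference -0.82, adjusted p = 0.202). Agrn, which encodes agrin, did not pass with a difference of 1.03 (adjusted p = 0.083).

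Of 13 genes of other aquaporins and water partners, 1 passed as higher, 1 as lower and 11 did not pass, with a median difference of 0.15. Aqp11, an aquaporin of intracellular membranes, was 9.29 ± 0.25 in A+/G+ and 7.54 ± 0.34 in A-/G+ (difference 1.74, adjusted p = 0.0172, limma). The call of Aqp12 as lower (adjusted p = 0.0443) came from a probe near background throughout, well above it on none of the 6 arrays, and no fold is given. Mlc1, an astrocyte membrane protein gene whose loss causes a leukoencephalopathy with cysts, was 14.93 ± 0.03 and 13.79 ± 0.59 and did not pass (difference 1.13, adjusted p = 0.101). Its partner Hepacam was nearly even (difference 0.07, adjusted p = 0.894).

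Of 16 genes of other inward rectifier and two-pore potassium channels, 1 passed as higher, 1 as lower and 14 did not pass, with a median difference of 0.63. Kcnk10, a two-pore channel gene, was lower in A+/G+ with 9.42 ± 0.11 against 10.77 ± 0.26 (difference -1.34, adjusted p = 0.0137, limma). The inward rectifier gene Kcnj4 was well above background on none of the A-/G+ arrays. Its means of 4.67 ± 0.33 and 2.87 ± 0.47 differed by 1.80 (95% interval 1.02 to 2.58, adjusted p = 0.0313, limma). The ratio of the medians was 2.66-fold, and the ratio of means with a bound on the dim group was 3.49-fold. For such a bound the dim group was given, on each of its arrays, the signal of the dimmest probe well above background there, or the probe's own signal if that was larger. The bound does not allow for the spread between arrays. Kcnj8, a channel gene known from pericytes, did not pass (adjusted p = 0.0805), with 6.86, 7.10 and 7.02 in A+/G+ and 1.93, 1.97 and 5.24 in A-/G+, where 1 of the 3 arrays showed it well above background. Of 8 markers of pericytes and smooth muscle, a list that holds Kcnj8 itself, 4 passed as higher and 4 did not pass, with a mean log2 signal of 6.99 to 7.34 in A+/G+ and 4.52 to 5.85 in A-/G+. Of these markers Des was well above background on none of the A-/G+ arrays and Myh11 on none of the 6 arrays, and the part of these cells was not tested.

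Of 20 genes of other connexins and pannexins, 1 passed as higher, 0 as lower and 19 did not pass, with a median difference of -0.03. Of these 20 genes, 10 were well above background on no array, so that the values of those 10 are background signal. Gjd2, the connexin gene of electrical synapses between neurons, was 5.35, 5.05 and 4.61 in A+/G+. It was well above background on none of the A-/G+ arrays and passed as higher in A+/G+ (adjusted p = 0.00421, limma). With the same bound on the dim group the ratio of means was 7.27-fold. Markers of Purkinje cells were also mostly higher in A+/G+: 5 of 8 passed as higher, 1 as lower and 2 did not pass, with a mean log2 signal of 8.99, 7.81 and 8.26 on the A+/G+ arrays and 5.28 to 5.88 on the A-/G+ arrays. Within A+/G+ both this mean and Gjd2 were highest on replicate 1, while replicates 2 and 3 had opposite orders, and the order was not tested. The means of the ependymal, meningeal fibroblast, endothelial, pericyte and oligodendrocyte precursor markers given above were also higher in A+/G+. The part of any of these cells in the difference of Gjd2 was not tested. The glial connexin gene Gjc3 had a difference of -0.08 and did not pass (adjusted p = 0.902). Panx1 was even, with 10.90 in both fractions (adjusted p = 0.995).

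**Figure D4:**
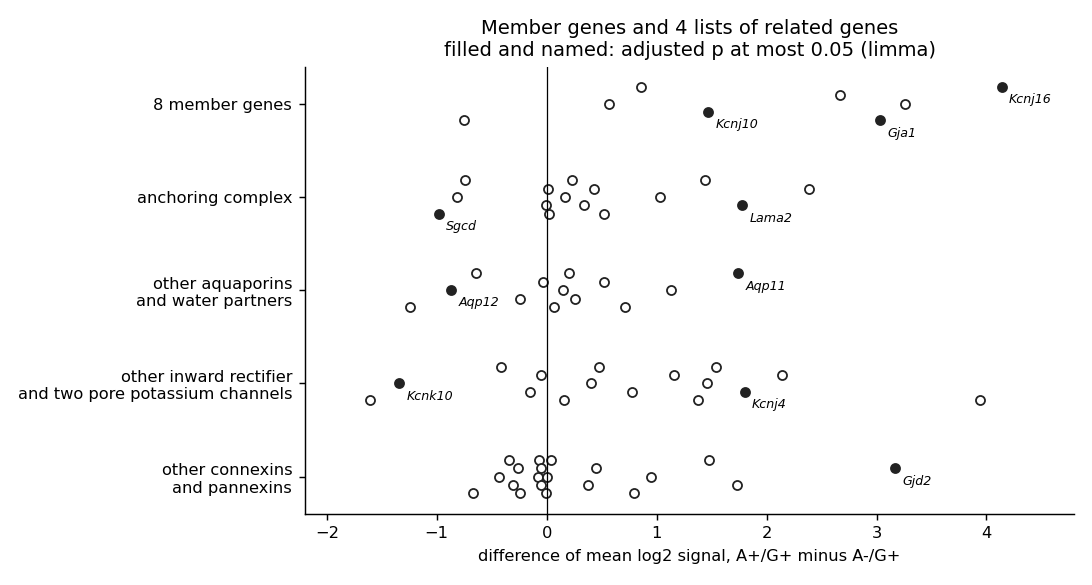
Difference of the mean log2 signal between the fractions (x axis, A+/G+ minus A-/G+) for the 8 member genes and for 4 lists of 64 related genes, with 1 point per gene and names where the adjusted p was at most 0.05. Of the related genes 7 are filled, and 10 of the 20 connexins and pannexins are well above background on no array.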

How the data were processed

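The authors deposited, for each of the 6 arrays, the background-corrected intensity per spot from Agilent Feature Extraction 10.7.3.1. They also deposited a table of quantile normalized log2 values with 38 empty cells, which served as an alternative. From the intensities, control spots and spots marked as outliers (118 to 250 per array, 6 of them spots of members) were left out, log2 values were quantile normalized as in the methods, and spots of 1 probe were averaged. The test was limma (version 3.58.1, R version 4.3.3) over 55681 probes, where the methods name Student's test, with Benjamini-Hochberg adjustment, a limit of 0.05 and, for size, medians 4-fold apart. Each gene takes the value of its brightest probe on average over the arrays. The members, the 4 related lists and the 11 marker lists were chosen with earlier results of these data known. Named are all 8 members, related genes that passed, the 3 nearest patterns of each member, and marker genes of lists whose level moved with a result. Other related genes were named after their values were seen. Some genes that this rule or the lists cover are not reported here. Python 3.11.15 was used for sequences and figures.

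Depth does not apply to arrays, and their number limits the precision. The fit was tested on simulated data. No block for slides could be fitted, since each fraction had its own slide. Alternatives in the background and scale were normexp with an offset of 50, a 75th percentile shift and the authors' table. Those in the probes were outlier spots kept, the average over a gene's probes, and a filter that removed dim probes. Those in the test were limma with trend and robust variance, the methods' t-test, a block for the replicate number, and the absence of each array in turn. Promoter sequences and gene neighbours came from RefSeq tables of GRCm38.p6, and no genome sequence of mm9 was read.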

Additional observations from a re-analysis of the deposited data

How the results depend on the processing

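The difference of no member changed sign under any of the 15 alternatives, and Aqp4 did not pass under any of them. The number of members that passed was 5 with normexp background correction, where 19.0% of all genes passed, 5 with the filter on dim probes, where 26.7% passed, and 2 to 7 with each array left out, compared with 3 as reported. Those past 4-fold as well numbered 4 with normexp, 4 with the filter and 2 to 3 with each array left out, compared with 2. Gjb6 passed with 6 alternatives, Gjb2 with 3, and Dag1 and Dtna with 1 each, the absence of A-/G+ replicate 3. The adjusted p of Kcnj10 was 0.0524 with the methods' t-test. Of the related genes, 8 passed as higher with normexp, 9 with the filter, 2 with the methods' t-test and 1 to 13 with each array left out, compared with 4, and 1 passed as lower with trend and robust variance and 0 to 4 with each array left out, compared with 3. Over all probes, 816 to 4437 passed as higher with each array left out, compared with 2589. As lower, 404 to 4578 passed, compared with 2583. With the replicate number as a block, 0 probes of the whole array, and so 0 members and 0 related genes in either direction, passed in limma, with 11671 probes and 6 members at an unadjusted p under 0.05. Whether equal numbers pair the samples is not known. The deviations from the group means had correlations of 0.09, 0.06 and 0.01 between arrays of the same number. Arrays of different numbers were not compared, so these values cannot decide it. The fit with the block has fewer degrees of freedom. The 75th percentile shift changed the split of called probes from 851 higher and 222 lower to 604 and 938. The A-/G+ arrays, with fewer probes well above background, limit what could be measured for dim genes. The cause of these changes was not tested.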
